A study of Homo sapiens with 20 samples.

Results

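The *ADAR* knockout (KO) was examined in NCI-H196, an established human cell line labelled as variant small cell lung cancer. The members are the 4 NCI-H196 libraries among the 20 RNA-seq libraries of the series, selected by the cell line in their labels. The cells were transduced with a lentivirus that carried Cas9 and a single guide RNA (sgRNA) against *GFP*, a sequence human cells lack, or against *ADAR*. Each target had 2 sgRNAs with 1 library each, called GFP sg1, GFP sg2, ADAR sg1 and ADAR sg2. All 4 cultures were untreated, with RNA isolated 5 days after transduction. The 2 sgRNAs of a target served as its replicates, so p-values rest on the spread between these libraries, which may in part be technical. Because GFP sg2 had few reads, the p-values say little about the spread between the *GFP* sgRNAs. The cells were transduced populations, and no source used here describes single clones in this comparison.

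ADAR1, the product of *ADAR*, converts adenosine to inosine in double-stranded RNA. Unedited double-stranded RNA can be bound by sensors such as MDA5 and by the kinase PKR, encoded by *EIF2AK2*. Activated PKR phosphorylates the translation factor eIF2α, which lowers general translation while translation of the transcription factor ATF4 rises. MDA5 signals through MAVS to interferon genes and to NF-kB, a transcription factor that drives cytokine genes and its own inhibitors.

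The depths were uneven. Reads on genes numbered 9156750 in GFP sg1, 62679 in GFP sg2, 1026443 in ADAR sg1 and 8426906 in ADAR sg2. Levels are given in CPM (read counts scaled to a common library size), with TMM factors within the line. At that scale 1 read was worth 14.7 CPM in GFP sg2 and at most 1.02 CPM in the other libraries, and 99.3% of the gene reads of the 2 *GFP* libraries came from GFP sg1. A gene was called well-counted when its mean level over the 4 libraries, 147 CPM or more, predicted at least 10 reads in GFP sg2. The mean spans both targets, so a gene that rose could pass although its *GFP* level alone predicted fewer reads. Of 14094 genes tested, 1708 were well-counted, and 4169 had no read in GFP sg2. The share of alignments that were not unique was 24.8% and 22.5% in the *GFP* libraries and 29.7% and 30.5% in the *ADAR* libraries, and its part in the results was not tested.

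The cells had little of the neuroendocrine programme that marks classic small cell lung cancer. *NEUROD1*, *INSM1*, *DLL3* and *GRP* had no read in any of the 4 libraries, *CHGB* had 3 reads in all, and *CHGA* and *SYP* stayed at or under 2.03 CPM. *UCHL1* was abundant, with levels of 543, 440, 510 and 564 CPM in GFP sg1, GFP sg2, ADAR sg1 and ADAR sg2. Another marker of this list was present at 10 to 15.5 CPM. Mesenchymal genes were abundant. *VIM*, which encodes vimentin, reached 1847 to 2616 CPM, the hyaluronan receptor *CD44* 645 to 698 CPM and the receptor kinase *AXL* 337 to 419 CPM. Among epithelial markers, *KRT19* and *NKX2-1* had no read, and *EPCAM* and *CDH1* were at or under 0.376 CPM. Keratins *KRT8* (29.3 to 48.3 CPM), *KRT18* (20.3 to 29.3 CPM) and *KRT7* (10.7 to 23.1 CPM) of the same list were present. *POU2F3*, which defines the tuft-cell-like subtype, had no read either. The leukocyte and endothelial markers summed to at most 4.06 CPM in any library, with *CD3E* and *CD68* at 0 reads.

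*ADAR* itself was lower in both libraries with sgRNAs against it. *ADAR* lies on the minus strand of chromosome 1 at 154554171 to 154600489 (GRCh37). Its level was 664 CPM in GFP sg1 and 865 CPM in GFP sg2 (59 reads, 95% exact Poisson interval 658 to 1116 CPM). It was 564 CPM in ADAR sg1 and 482 CPM in ADAR sg2, so the groups did not overlap. The means were 764 ± 142 CPM with *GFP* and 523 ± 58.2 CPM with *ADAR* sgRNAs (SD, n = 2 sgRNAs each). The log2 fold change was −0.42 ± 0.11 (SE), at an adjusted p of 0.00221 by the quasi-likelihood test of edgeR, and −0.39 (adjusted p = 0.0498) against GFP sg1 alone. DESeq2 gave −0.51 with an adjusted p of 1. Set against GFP sg1, the log2 ratio was −0.23 for ADAR sg1 and −0.46 for ADAR sg2. Cas9 cuts DNA and leaves small insertions or deletions, so the mRNA level is no measure of how much ADAR1 protein remained. The counts also do not separate the transcripts of the p110 and p150 isoforms.

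The transcriptome moved in both directions after *ADAR* KO. The 10 largest increases among well-counted genes that also passed against GFP sg1 alone with groups apart were *COL5A3*, *TNFAIP3*, *LIF*, *IL6*, *CXCL8*, *SLC12A7*, *NFKBIZ*, *NFKBIA*, *SESN2* and *NFKB2*. Of these, *COL5A3*, *TNFAIP3*, *LIF*, *IL6*, *SESN2* and *NFKB2* had means with *GFP* sgRNAs under 147 CPM and were well-counted only through the *ADAR* libraries. Larger fitted values occurred among genes of low level, up to 5.04. With edgeR's quasi-likelihood test and Benjamini-Hochberg adjustment at a threshold of 0.05, 1474 of 14094 genes rose (10.5%) and 1076 fell (7.63%). Among the 1708 well-counted genes, 328 rose (19.2%) and 169 fell (9.89%), together 29.1%. Of these 497, 390 also passed in the same direction against GFP sg1 alone, and 301 of the 390 had both *ADAR* libraries beyond both *GFP* libraries, 214 of them higher and 87 lower. Among all well-counted genes, 34.4% had both *ADAR* libraries above and 19.3% had both below the *GFP* libraries. GFP sg1 supplied 99.3% of the gene reads of the *GFP* libraries. The fit against GFP sg1 alone thus reuses nearly the same control data and is not an independent check, here or below. Its spread comes from the *ADAR* libraries only. The number of calls depended on how the spread was estimated. DESeq2 called 10 genes (0.071%), all higher, and limma-voom with sample quality weights called 1184 (8.4%). With either *ADAR* library left out, edgeR called 0 genes, with 923 and 582 genes at an unadjusted p under 0.05.

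**Figure D1:**
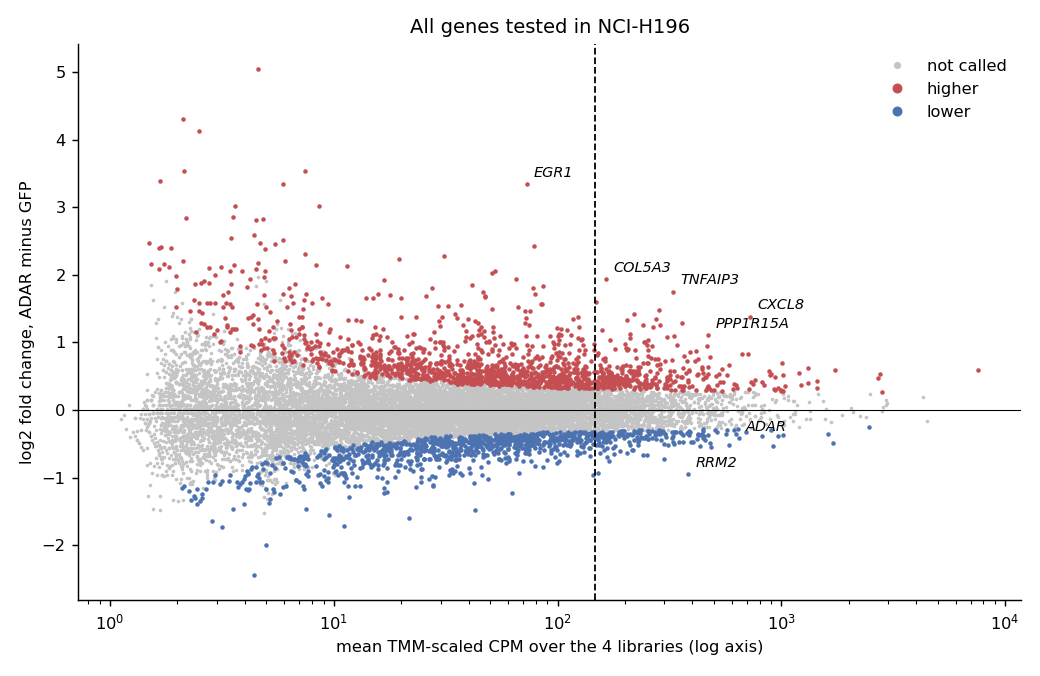
Each point is a gene tested in NCI-H196, with its mean TMM-scaled CPM over the 4 libraries (log axis) and its log2 fold change, *ADAR* minus *GFP*. Coloured points passed an adjusted p of 0.05, and the dashed line at 147 CPM bounds the 1708 well-counted genes to its right.

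The 10 genes that DESeq2 called give the shortest list on which the tools shared calls, and all 10 were also called by edgeR in the same direction. They were *EGR1*, *COL5A3*, *TNFAIP3*, *LIF*, *IL6*, *NFKBIZ*, *NFKBIA*, *SESN2*, *NFKB2* and *PPP1R15A*. *EGR1*, an immediate-early zinc-finger factor, was the 1 gene of these that was not well-counted, and it was singled out after its values were seen. Its level was 12.2 CPM in GFP sg1, 29.3 CPM in GFP sg2 (2 reads), 126 CPM in ADAR sg1 and 124 CPM in ADAR sg2, a log2 fold change of 3.34 ± 0.16 (SE).

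The NF-kB targets formed the list with the highest median among those with more than 1 tested member. All 18 tested of the 19 listed rose and none fell (background 10.5% higher), with a median log2 fold change of 1.40, against −0.0041 over all genes tested. In each of the 18, both *ADAR* libraries lay above both *GFP* libraries, as did 25.6% of all genes tested. The shares of 10.5% higher and 7.63% lower are the background of every list count in the fit of all 4 libraries. Against GFP sg1 alone, 17 of 18 passed (background 4.76% higher), and the remaining gene was the chemokine *CCL2*. DESeq2 called 5 of the 18, limma-voom 17, and edgeR with the spread shared with the other lines 8 (background 0.187%). Summed over the list, GFP sg1 had 1881 CPM, GFP sg2 1378 CPM (94 reads, 95% exact Poisson interval 1113 to 1686 CPM), ADAR sg1 4201 CPM and ADAR sg2 4921 CPM.

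Among inhibitors of the pathway, *TNFAIP3*, which encodes the ubiquitin-editing enzyme A20 (chromosome 6, 138188351 to 138204451, GRCh37), was at 158 and 117 CPM in GFP sg1 and GFP sg2 (8 reads). It was at 499 and 543 CPM in ADAR sg1 and ADAR sg2, a log2 fold change of 1.75 ± 0.12 (SE), and edgeR gave an adjusted p of 8.42e-29. The adjusted p of *TNFAIP3* was 1.76e-05 with DESeq2 and 0.0114 with edgeR and the shared spread. *NFKBIA*, encoding IκBα, was at 164, 191, 399 and 390 CPM in the same order. Both pairs were far apart relative to the spread within each target. *NFKBIZ*, which encodes an atypical IκB protein, was at 208, 220, 489 and 522 CPM (log2 fold change 1.29). *TNIP1*, a partner of A20, rose by a log2 value of 1.01. The transcription factor subunit *NFKB2* was at 170, 117, 399 and 387 CPM (log2 fold change 1.22). *NFKB1* and *RELB* rose by log2 values of 0.97 and 1.37.

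Among secreted factors, *IL6* (chromosome 7, 22765503 to 22771621, GRCh37), a pro-inflammatory cytokine, was at 127 CPM in GFP sg1, 103 CPM in GFP sg2 (7 reads), 272 CPM in ADAR sg1 and 376 CPM in ADAR sg2. Its log2 fold change was 1.42 ± 0.12 (SE). *LIF*, an IL-6 family cytokine, was at 82, 29.3, 224 and 256 CPM (log2 fold change 1.60), with 2 reads in GFP sg2. The neutrophil chemokine *CXCL8* was the most abundant of these genes and the one on which the *GFP* libraries differed most. It had 473 CPM in GFP sg1 and 132 CPM in GFP sg2 (9 reads), against 950 and 1332 CPM in ADAR sg1 and ADAR sg2. Its log2 fold change was 1.38, and 1.30 against GFP sg1 alone. The related chemokines *CXCL1*, *CXCL2* and *CXCL3* rose by log2 values of 3.53, 1.94 and 2.27, with 0, 1 and 0 reads in GFP sg2. *ICAM1*, a leukocyte adhesion molecule, rose by 1.81 on the log2 scale.

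Stretches upstream of 4 of these genes are shown because the members moved together. The kB motif was searched as GGG and TTCC separated by any 3 bases, on both strands, in RefSeq promoter windows (GRCh38.p14, 250 bases before to 50 bases after the start of a gene). It was present for 11 of the 14 NF-kB targets with a window and for 7.83% of all 27305 genes with one. It was present for 12.6% of 1403 well-counted genes and 17.5% of the 263 of these that rose. A match is a description of letters, not of binding. The list was made of known NF-kB targets, so its share is not independent evidence, and the same holds for the lists in the motif searches below. Each run is on the strand of its gene, 5′ to 3′, ends before the start site, and has the matches in capitals. The windows are chr6:137867162-137867243 (plus strand) for *TNFAIP3*, chr14:35404791-35404860 (minus strand) for *NFKBIA*, chr7:22727097-22727166 (plus strand) for *IL6* and chr4:73869284-73869354 (plus strand) for *CXCL1*. *TNFAIP3* had 2 matches, and the 2 matches of *CXCL1* overlap on opposite strands.
TNFAIP3: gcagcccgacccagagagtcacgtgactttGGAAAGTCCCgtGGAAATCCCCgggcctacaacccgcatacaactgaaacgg
NFKBIA: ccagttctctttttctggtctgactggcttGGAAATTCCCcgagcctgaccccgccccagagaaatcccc
IL6: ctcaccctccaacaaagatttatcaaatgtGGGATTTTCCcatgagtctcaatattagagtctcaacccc
CXCL1: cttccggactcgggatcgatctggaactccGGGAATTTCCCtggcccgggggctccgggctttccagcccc

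**Figure D2:**
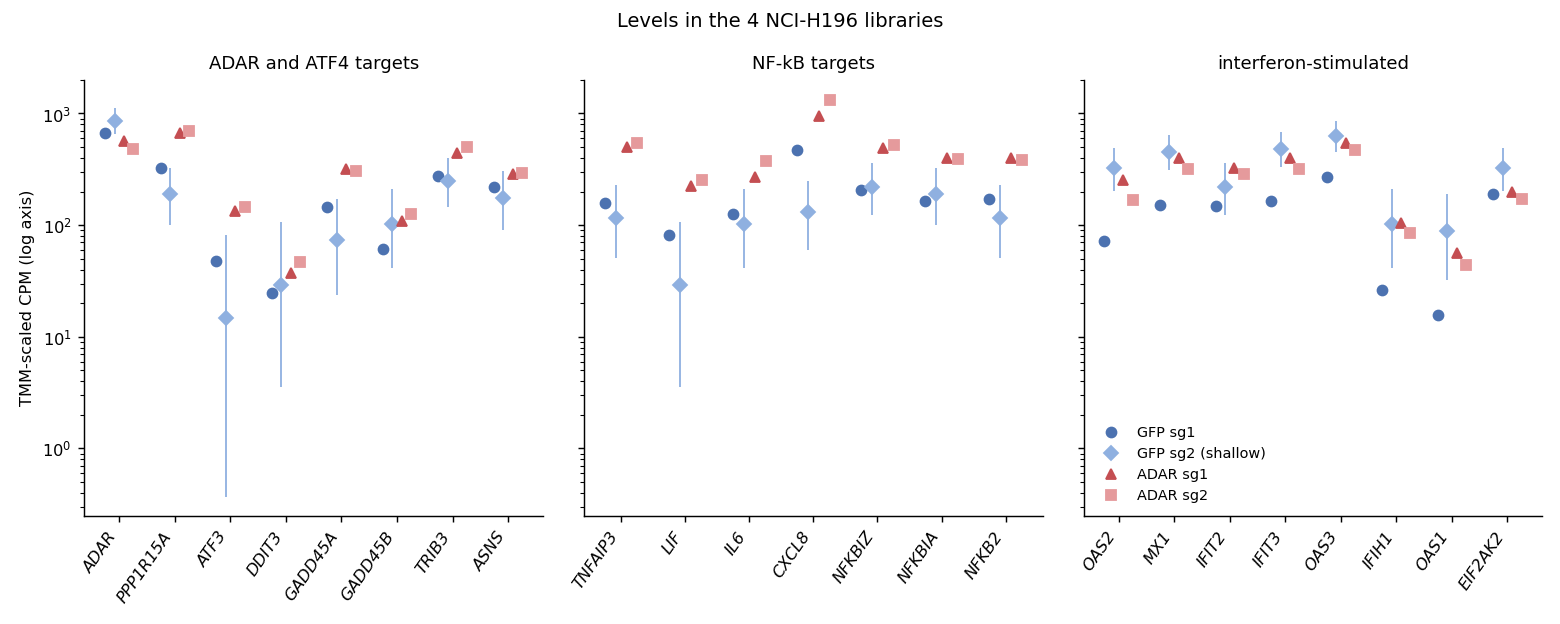
TMM-scaled CPM (log axis) in each of the 4 NCI-H196 libraries for *ADAR* with 7 ATF4 targets, for 7 genes of NF-kB signalling and for 8 interferon-stimulated genes. Bars on GFP sg2 are 95% exact Poisson intervals for counting error only; GFP sg2 lies near GFP sg1 or below it for most NF-kB genes but above GFP sg1 for the 8 interferon-stimulated genes.

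The immediate-early genes, which cells transcribe within minutes of a stimulus, rose as a list. All 21 tested members were called higher (background 10.5%), with a median log2 fold change of 1.03, and in 20 of 21 both *ADAR* libraries lay above both *GFP* libraries (background 25.6%). DESeq2 called 1 of the 21 and edgeR with the shared spread 5. Only 4 of the 21 were well-counted, and 18 passed against GFP sg1 alone (background 4.76%). *JUN*, an AP-1 subunit, was at 177, 132, 337 and 367 CPM in GFP sg1, GFP sg2, ADAR sg1 and ADAR sg2 (log2 fold change 1.03 ± 0.12 SE). *KLF6*, a zinc-finger factor, was at 324, 264, 470 and 484 CPM (log2 fold change 0.58). *KLF10* rose by 0.55 and *IER5* by 0.40 on the log2 scale, and *IER5* did not pass against GFP sg1 alone (adjusted p = 0.108). The AP-1 subunit *FOS* was at 7.58, 0, 34.5 and 35.8 CPM. *EGR3* had the highest fitted value of the list, 4.12, but at most 6.65 CPM in any library and no read in GFP sg2.

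Targets of ATF4 rose in both *ADAR* libraries. The 7 ATF4 targets displayed by the study all rose, with a median log2 fold change of 0.98, and all 7 passed against GFP sg1 alone. These 7 were picked by the study with these libraries in hand, so their direction is not independent evidence. *PPP1R15A* (chromosome 19, 49375469 to 49379316, GRCh37), which encodes the phosphatase subunit GADD34 that reverses eIF2α phosphorylation, was at 328 CPM in GFP sg1 and 191 CPM in GFP sg2 (13 reads). It was at 664 and 703 CPM in ADAR sg1 and ADAR sg2 (log2 fold change 1.11 ± 0.11 SE, edgeR adjusted p = 5.25e-16). *PPP1R15A* passed with DESeq2 (adjusted p = 0.0188) but not with edgeR and the shared spread (adjusted p = 0.405). The growth-arrest gene *GADD45A* was at 145, 73.3, 317 and 304 CPM, and *TRIB3*, a pseudokinase that restrains ATF4, at 276, 249, 443 and 499 CPM. Their log2 fold changes were 1.12 and 0.80. *ASNS*, asparagine synthetase, was at 219, 176, 288 and 296 CPM, the smallest change of the 7 at 0.43. *ATF3*, *DDIT3* and *GADD45B* were not well-counted. *ATF3*, a stress-induced transcription factor, had 48.2 CPM in GFP sg1, 1 read in GFP sg2, and 134 and 144 CPM with *ADAR* sgRNAs. *DDIT3*, encoding the pro-apoptotic factor CHOP, was at 24.5, 29.3, 37.6 and 46.8 CPM, and *GADD45B* at 61.3, 103, 109 and 127 CPM, where the *GFP* library of 7 reads was close to the *ADAR* libraries.

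Of 24 other ATF4 targets, 16 rose, none fell and 8 did not pass, with a median of 0.50, and 12 passed against GFP sg1 alone. *SESN2*, a negative regulator of mTORC1, was at 153, 103, 333 and 376 CPM (log2 fold change 1.25). *CEBPB*, a dimerization partner of ATF4, was at 185, 176, 334 and 364 CPM (0.94). The amino acid transporter subunits *SLC7A5* and *SLC3A2* rose by log2 values of 0.70 and 0.58. Serine synthesis genes gave smaller values, with *PHGDH* at 0.29 and *PSAT1* at −0.16, the latter not called. Of 12 cytosolic tRNA synthetases, 6 rose and none fell, with a median of 0.28. *CARS1* (0.66), *MARS1* (0.54), *YARS1* (0.52) and *AARS1* (0.42), which charge tRNAs with cysteine, methionine, tyrosine and alanine, had both *ADAR* libraries above both *GFP* libraries.

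The composite motif read by ATF4 and C/EBP factors was searched as TGATGNAA (N is any base) on both strands of the same RefSeq windows. It was present for 7 of 10 tRNA synthetases, for 2 of 6 of the study's ATF4 targets, for 6 of 19 other targets and for 4.46% of all genes with a window. The stretches of *ATF3* (chr1:212565186-212565253, plus strand) and *ASNS* (chr7:97872439-97872506, minus strand) follow, in the gene's orientation and with the match in capitals, since these were the 2 of the study's targets with a match.
ATF3: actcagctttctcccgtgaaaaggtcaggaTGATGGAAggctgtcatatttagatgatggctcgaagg
ASNS: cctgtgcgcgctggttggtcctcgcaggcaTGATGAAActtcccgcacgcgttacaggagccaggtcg

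None of the mRNAs of the 4 eIF2α kinases upstream of ATF4 was called higher. *EIF2AK2* was at 190 CPM in GFP sg1, 322 CPM in GFP sg2 (22 reads), 200 CPM in ADAR sg1 and 173 CPM in ADAR sg2, so the groups overlapped. Its log2 fold change was −0.11 ± 0.12 (SE), and edgeR gave an adjusted p of 0.59, and −0.08 against GFP sg1 alone. The values for *EIF2AK1*, *EIF2AK3* and *EIF2AK4*, which encode HRI, PERK and GCN2, were −0.06, 0.01 and −0.31, and none passed. *EIF2S1*, which encodes eIF2α, fell by 0.35 on the log2 scale, from 319 and 381 CPM to 246 and 259 CPM. *ATF4* rose by 0.36 and *PPP1R15B*, a constitutive eIF2α phosphatase subunit, by 0.61. An mRNA level does not measure kinase activity or phosphorylation.

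Interferon-stimulated genes gave a result that depended on which *GFP* library served as the control. In the fit of all 4 libraries, 19 of the 26 tested genes of the study's interferon signature were called higher and none lower, with a median log2 fold change of 0.67. Against GFP sg1 alone, 17 of 27 were called higher, and DESeq2 called none of the 26, where it called 10 genes in all, with 137 at an unadjusted p under 0.05. The 2 *GFP* libraries, however, did not lie together. GFP sg2 was above GFP sg1 in 23 of the 26 genes and above both *ADAR* libraries in 12. Among the 1708 well-counted genes, GFP sg2 was above GFP sg1 in 643 and above both *ADAR* libraries in 558. Of the 12 well-counted signature genes, GFP sg2 was above both *ADAR* libraries in 6. Both *ADAR* libraries lay above both *GFP* libraries in 6 of the 26, a share no higher than the 25.6% of all genes tested. Summed over the list, GFP sg1 had 3525 CPM and GFP sg2 6025 CPM (411 reads, 95% exact Poisson interval 5456 to 6636 CPM), so counting error alone does not span the gap between them. ADAR sg1 had 5991 CPM, inside the interval of GFP sg2, and ADAR sg2 had 5296 CPM, just under it.

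Single genes showed the same ordering. *OAS2*, an oligoadenylate synthetase that activates RNase L, was at 72 CPM in GFP sg1, 322 CPM in GFP sg2 (22 reads, 202 to 488 CPM), 255 CPM in ADAR sg1 and 169 CPM in ADAR sg2. *MX1*, an antiviral GTPase, was at 153, 454, 401 and 318 CPM, with 31 reads in GFP sg2 (309 to 645 CPM). *IFIT3*, a member of the IFIT family of antiviral proteins, was at 166, 484, 400 and 320 CPM. In all 3 genes GFP sg1 alone was low. The fitted log2 fold changes were 1.33, 1.09 and 0.96 with all libraries and −0.73, −0.39 and −0.47 against GFP sg2 alone, where none passed. HCC366 and NCI-H1650, lung cancer lines of the series with the same design, had deeper GFP sg2 libraries. There *OAS2* was also lower in GFP sg1 than in GFP sg2, at 44.9 and 162 CPM in HCC366 and 130 and 228 CPM in NCI-H1650. *MX1* was at 1.55 and 8.31 CPM in HCC366 and 146 and 368 CPM in NCI-H1650. *IFIT3* had this order in HCC366 (143 and 280 CPM) but not in NCI-H1650 (736 and 594 CPM). The cause was not tested. In NCI-H196 *IFIT2*, of the same family as *IFIT3*, was at 148, 220, 328 and 289 CPM, with both *ADAR* libraries above both *GFP* libraries (log2 fold change 1.01). *IFI6*, an interferon-inducible gene at 735, 733, 919 and 973 CPM, and *IFI27*, at 478, 498, 578 and 578 CPM, had the same order of groups. *IFI6* rose by 0.37, and *IFI27* had a value of 0.27 and did not pass.

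Among sensors of double-stranded RNA, 9 of 15 tested genes were called higher and none lower, with a median of 0.87. *IFIH1*, encoding MDA5, was at 26.2 CPM in GFP sg1, 103 CPM in GFP sg2 (7 reads), 105 CPM in ADAR sg1 and 84.2 CPM in ADAR sg2 (log2 fold change 1.71, and −0.21 against GFP sg2 alone). *OAS1* and *OAS3* were highest in GFP sg2, with fitted values of 1.50 and 0.79 that turned to −0.92 and −0.32 against GFP sg2 alone. *MAVS*, the adaptor of MDA5, had a value of −0.30 and did not pass. *DHX58*, which encodes the RIG-I-like protein LGP2, was at 19.9, 14.7, 57.9 and 49.1 CPM, but with 1 read in GFP sg2.

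Interferon transcripts were rare in every library. *IFNL1*, a type III interferon, had 10 reads in GFP sg1, 0 in GFP sg2, 9 in ADAR sg1 and 62 in ADAR sg2, or 1.12, 0, 9.14 and 7.78 CPM. It was the 1 tested member of 8 interferon genes and rose by a log2 value of 2.81 ± 0.44 (SE), and edgeR gave an adjusted p of 1.01e-07. *IFNB1*, encoding IFN-β, had 2, 0, 2 and 22 reads and was not tested in the fit of all 4 libraries. A count of 0 in GFP sg2 leaves room for up to 54.1 CPM by the exact Poisson interval, far above these levels, so GFP sg2 gave no information on interferon genes.

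The interferon-stimulated response element was searched as GAAA repeated after any 2 bases, on both strands of the same windows, and was present for 14 of 24 signature genes against 4.38% of all genes with a window. The stretches of *ISG15* (chr1:1013354-1013429, plus strand) and *IFIT1* (chr10:89392477-89392559, plus strand) are given because both genes sit in the list on which the *GFP* libraries differed. *ISG15*, a ubiquitin-like modifier, was at 118, 235, 250 and 213 CPM, and *IFIT1* at 37, 220, 97.4 and 87.7 CPM. Each stretch has 2 matches, in capitals, and the matches of *ISG15* overlap.
ISG15: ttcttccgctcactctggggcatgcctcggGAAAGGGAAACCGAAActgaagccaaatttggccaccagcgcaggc
IFIT1: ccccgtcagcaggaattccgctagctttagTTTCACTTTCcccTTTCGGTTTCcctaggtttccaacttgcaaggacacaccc

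Endoplasmic reticulum chaperones resembled the interferon genes in how the *GFP* libraries lay. Of 18 tested members, 12 rose and none fell (median 0.41), and DESeq2 called none of the 18. GFP sg2, however, was above both *ADAR* libraries in 11 of 18. Among well-counted genes this held for 8 of 12 members and for 558 of all 1708. The summed level was 6071 CPM in GFP sg1, 8546 CPM in GFP sg2 (583 reads, 7866 to 9268 CPM), 7887 CPM in ADAR sg1 and 7680 CPM in ADAR sg2. *HSP90B1*, the chaperone GRP94, was at 939, 1891, 1559 and 1378 CPM, with 129 reads in GFP sg2 (1579 to 2247 CPM). *HYOU1*, another chaperone of this compartment, was at 179, 396, 332 and 299 CPM. For both, only GFP sg1 was low, and their fitted values of 0.43 and 0.73 turned to −0.36 and −0.34 against GFP sg2 alone. *HSPA5*, encoding BiP, and the transcription factor *XBP1* kept both *ADAR* libraries above both *GFP* libraries. *HSPA5* was at 692, 850, 982 and 1060 CPM (log2 fold change 0.53), and *XBP1* at 298, 264, 425 and 474 CPM (0.62).

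**Figure D3:**
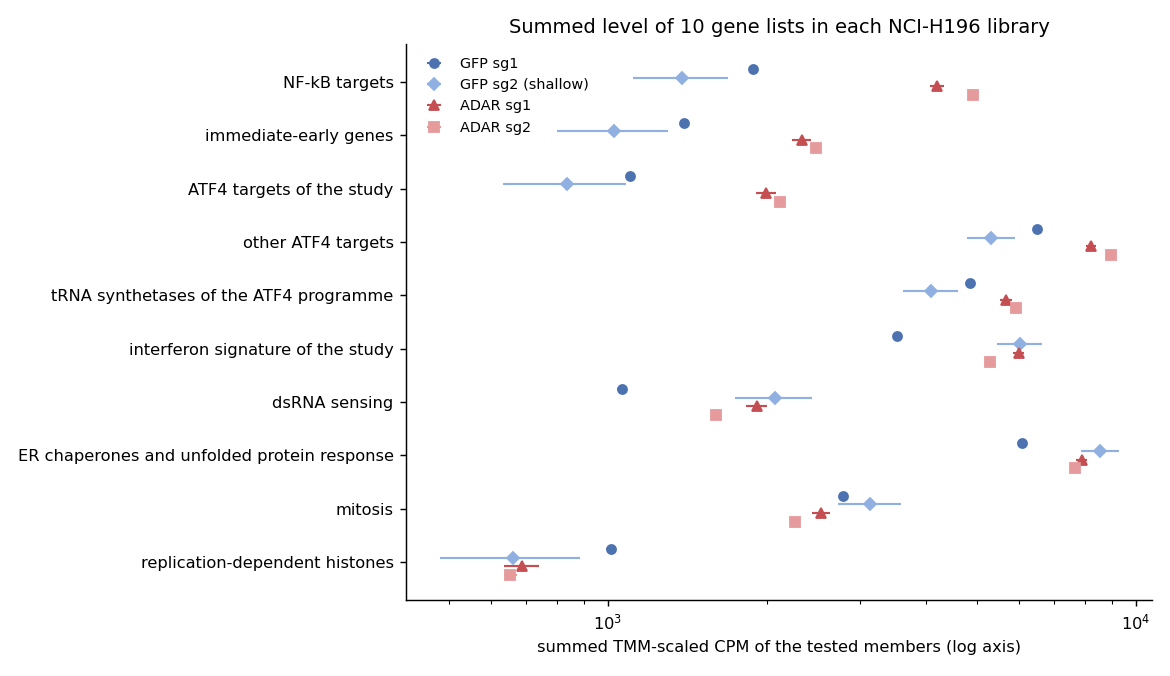
Summed TMM-scaled CPM of the tested members of 10 gene lists (log axis) in each NCI-H196 library, with 95% exact Poisson intervals for counting error. GFP sg1 and GFP sg2 both lie below both *ADAR* libraries for the NF-kB, immediate-early and ATF4 lists, whereas GFP sg2 lies with or above the *ADAR* libraries for the interferon signature, dsRNA sensing and the ER chaperones.

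*RRM2*, a subunit of ribonucleotide reductase, the enzyme that makes deoxynucleotides, had the largest decrease by the rule for named genes. It was at 541 CPM in GFP sg1, 440 CPM in GFP sg2 (30 reads), 284 CPM in ADAR sg1 and 271 CPM in ADAR sg2 (log2 fold change −0.95 ± 0.11 SE, edgeR adjusted p = 5.82e-13). *RRM2* did not pass with DESeq2 (adjusted p = 0.307) or with edgeR and the shared spread (adjusted p = 0.344). Its partner subunit *RRM1* was at 297, 279, 208 and 226 CPM (−0.43). Of 20 DNA replication genes, 5 fell and none rose (background 7.63% lower), while 15 did not pass, and the median was −0.11. Their summed level in GFP sg2, 2888 CPM (2498 to 3320 CPM), was below the 3375 and 3551 CPM of the *ADAR* libraries, whereas GFP sg1 had 3880 CPM. Of 21 mitosis genes, 10 fell, none rose and 11 did not pass, with a median of −0.34, and 6 passed as lower against GFP sg1 alone (background 3.09% lower). *TOP2A*, topoisomerase II, was at 400, 513, 334 and 305 CPM, and *CCNA2*, cyclin A2, at 70.5, 88, 42.6 and 41.7 CPM with 6 reads in GFP sg2. *MKI67*, the proliferation marker, overlapped between the groups at 437, 381, 400 and 321 CPM and did not pass against GFP sg1 alone. Of 10 tested histone genes 7 fell and none rose (background 7.63% lower), with a median of −0.49. The decrease of this list rests on GFP sg1, which had a summed level of 1013 CPM, against 660 CPM in GFP sg2 (481 to 883 CPM), 687 CPM in ADAR sg1 and 653 CPM in ADAR sg2. The linker histone *H1-2* was at 243 CPM in GFP sg1, 117 CPM in GFP sg2 (8 reads), 119 CPM in ADAR sg1 and 125 CPM in ADAR sg2, so its fitted −0.94 rests on GFP sg1.

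The other large decreases lay outside these lists. *LDHA*, lactate dehydrogenase A, was at 343, 235, 214 and 210 CPM (log2 fold change −0.67). Actin regulators were among them, with profilin 2 (*PFN2*) at 317, 249, 207 and 192 CPM (−0.67) and cofilin 2 (*CFL2*) at 271, 249, 167 and 184 CPM (−0.60). The sodium pump beta subunits *ATP1B3* and *ATP1B1* fell by log2 values of 0.60 and 0.57. The G protein subunit *GNB4*, the vesicle transport protein *SFT2D2*, the fatty acid elongation enzyme *HACD3* and the LIM protein *FHL1* fell by 0.75, 0.69, 0.65 and 0.59. In all of these both *ADAR* libraries lay below both *GFP* libraries, as the rule required.

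The largest well-counted increase was outside the NF-kB list, in a gene that met the limit of 147 CPM only through the *ADAR* libraries. *COL5A3* (chromosome 19, 10070237 to 10121180, GRCh37), which encodes a fibrillar collagen chain, was at 67.1 CPM in GFP sg1, 73.3 CPM in GFP sg2 (5 reads), 267 CPM in ADAR sg1 and 253 CPM in ADAR sg2. Its log2 fold change was 1.94 ± 0.13 (SE), and edgeR gave an adjusted p of 2.07e-29. The adjusted p of *COL5A3* was 0.000691 with DESeq2 and 0.0221 with edgeR and the shared spread. Other matrix genes moved less, with 5 of 17 higher, 1 lower and a median of 0.17. *COL1A1* was at 2077, 2653, 3182 and 2944 CPM (0.47). *SLC12A7*, a potassium-chloride cotransporter, was at 146, 205, 375 and 374 CPM (1.34). YAP and TAZ targets were split, with 4 higher and 3 lower of 12. *AMOTL2* and *LATS2*, which restrain YAP, rose by 0.64 and 0.56, whereas *CCN2*, at 438, 249, 253 and 257 CPM, was high in GFP sg1 only.

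Genes of cell death moved in both directions. Of 14 tested members of the BCL2 family and death receptors, 6 rose and 1 fell, with a median of 0.20. *TNFRSF10B*, the TRAIL receptor DR5, was at 230, 176, 329 and 379 CPM (log2 fold change 0.67). *PMAIP1*, encoding the BH3-only protein NOXA, was at 144, 103, 195 and 197 CPM (0.46), and the anti-apoptotic *MCL1* at 576, 528, 686 and 733 CPM (0.32). *BBC3*, encoding PUMA, rose by 1.65 and *BCL2* fell by 0.99 on the log2 scale, each with 1 read in GFP sg2. Of 16 p53 targets, 6 rose and 1 fell, with a median of 0.07. *CDKN1A*, the cyclin-dependent kinase inhibitor p21, was at 574, 440, 665 and 777 CPM (0.38) and did not pass against GFP sg1 alone (adjusted p = 0.0689). *GDF15*, a stress cytokine, rose by 0.39, whereas *MDM2* had a value of −0.01.

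The remaining lists had fewer calls. Of 16 sterol synthesis genes, 6 rose and none fell (median 0.22, background 10.5% higher), 4 passed against GFP sg1 alone and limma-voom called 2. The 6 included the transcription factor *SREBF2*, which activates genes of this pathway, at 106, 117, 193 and 185 CPM (0.81). *INSIG1*, which retains the sterol sensor complex in the endoplasmic reticulum, rose by 0.55, with no read in GFP sg2. Of 12 cytosolic heat shock genes, 5 rose and 1 fell (median 0.18). *HSPB1* rose by 0.50. *DNAJB1* had 0.45 and did not pass against GFP sg1 alone (adjusted p = 0.0656). *BAG3*, at 124, 205, 178 and 185 CPM, had 0.54 but −0.15 against GFP sg2 alone, and *HSPA1A*, whose reads can be shared with its near-identical copy *HSPA1B*, had 0.57 with overlapping groups. Of 43 ribosomal protein genes, 5 fell and none rose (median −0.14), a share near the 7.63% of all and 9.89% of well-counted genes. *RPL5*, *RPS2* and *RPL23* had values of −0.36, −0.33 and −0.32, of which those of *RPS2* and *RPL23* did not pass against GFP sg1 alone. *RPL7*, at 353, 191, 265 and 277 CPM, had −0.33 but 0.53 against GFP sg2 alone. Of 12 mitochondrial mRNAs, *MT-CO1* (−0.49) and *MT-CO3* (−0.32), subunits of cytochrome c oxidase, fell, but *MT-CO3* did not pass against GFP sg1 alone. Of 11 NRF2 targets, 2 rose and 3 fell (median −0.21). *NQO1*, *FTL* and *TXNRD1*, which encode antioxidant and iron storage proteins, had fitted values of −0.43, −0.42 and −0.38 but overlapped between the groups. *NQO1* (208, 103, 143 and 153 CPM) and *FTL* (616, 308, 383 and 471 CPM) turned to 0.56 and 0.53 against GFP sg2 alone. *HMOX1*, heme oxygenase, had 0.50 and did not pass against GFP sg1 alone. Of 12 host genes of small nucleolar RNAs, 4 rose and 1 fell (median 0.29), and each of the 5 had at most 5 reads in GFP sg2. *SNHG12* and *SNHG8* rose by 0.76 and 0.73, and *SNHG3* fell by 0.51.

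**Figure D4:**
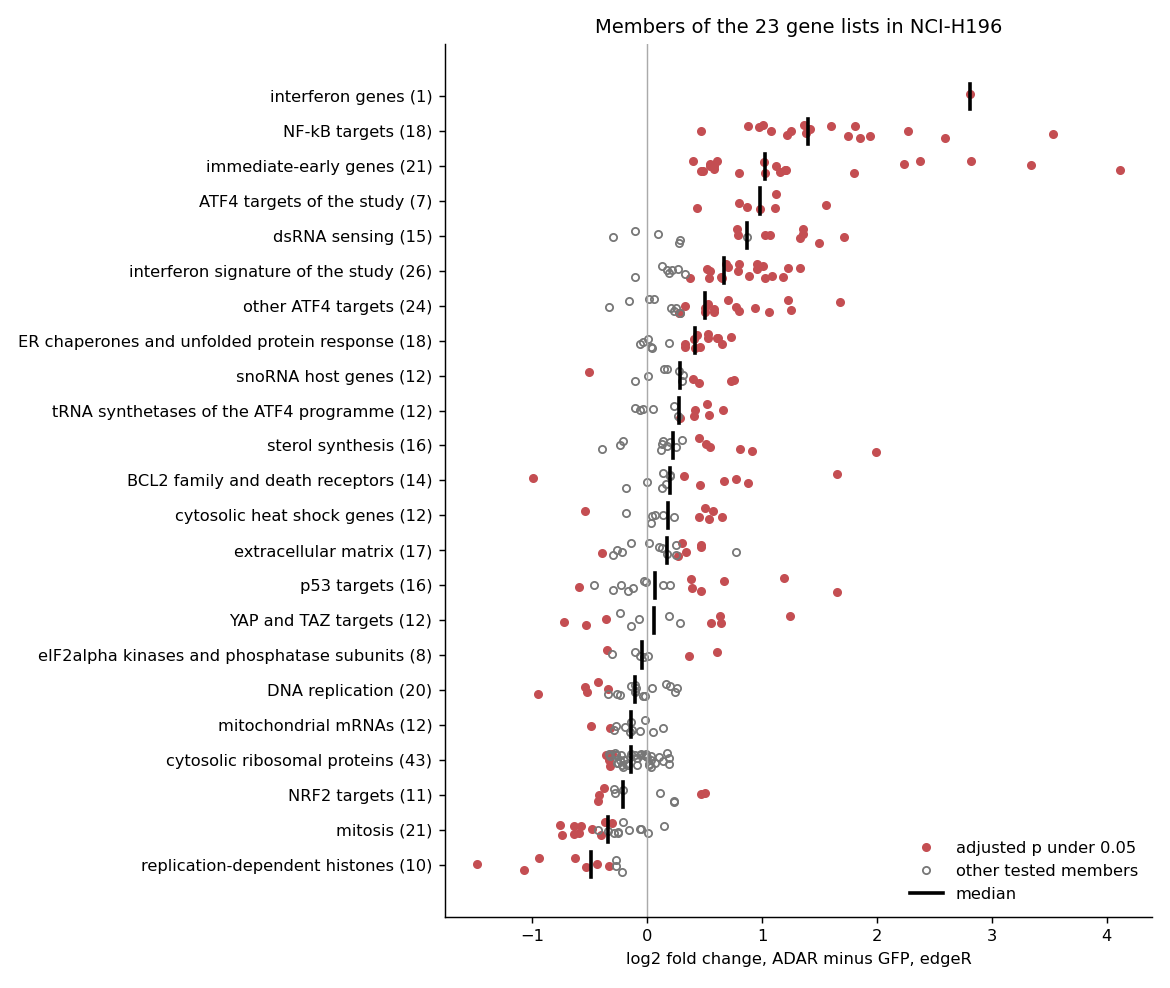
Log2 fold change of every tested member of the 23 gene lists in NCI-H196 (*ADAR* minus *GFP*, edgeR), with the number tested in parentheses. Filled points passed an adjusted p of 0.05 and black bars mark the medians; all points of the NF-kB, immediate-early and study ATF4 lists are filled and above 0.

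The 2 *ADAR* sgRNAs can be set side by side against the deep control GFP sg1, with 1 library each and no test. The median log2 ratio of NF-kB targets was 1.27 for ADAR sg1 and 1.53 for ADAR sg2, and that of the study's ATF4 targets 0.82 and 1.05. Immediate-early genes had medians of 0.97 and 1.06. Interferon signature genes had 0.89 and 0.68, and genes of dsRNA sensing 1.10 and 0.90. ADAR sg2 thus had the higher medians for the first 3 lists and the lower medians for the last 2. The depths differed, with 1026443 gene reads in ADAR sg1 and 8426906 in ADAR sg2, and the part of depth was not tested.

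The effect of *ADAR* KO was then compared with that in NCI-H1650, another lung cancer line treated in the same way, by testing the difference of the 2 effects in 1 fit of 8 libraries. Of 16195 genes, 211 differed (1.3%), 108 with the higher effect in NCI-H196 and 103 with the lower. *ADAR* mRNA was lowered less in NCI-H196. In NCI-H1650 it was at 621 and 760 CPM with *GFP* and 296 and 268 CPM with *ADAR* sgRNAs, a log2 fold change of −1.29 against −0.42, and the difference of 0.86 ± 0.16 (SE) passed, at an adjusted p of 0.0011 by edgeR. The difference did not pass for any of the study's 7 ATF4 targets, which also all rose in NCI-H1650 with a median of 1.16. The median difference over them was −0.15. Of 18 NF-kB targets 2 differed, both with the higher effect in NCI-H196, and 15 of the 17 tested in NCI-H1650 rose there (median 1.04, background 6.23% higher).

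Of 27 interferon signature genes, 6 differed, all with the higher effect in NCI-H196, in a fit where GFP sg1 carried 99.3% of the reads of the NCI-H196 control. In NCI-H1650, 4 of the 27 rose (background 6.23% higher), with a median of 0.15. *IFIH1* differed by 1.34 ± 0.20 (SE), from a log2 fold change of 1.71 in NCI-H196 and 0.37 in NCI-H1650, where it was at 319 and 317 CPM with *GFP* and 380 and 441 CPM with *ADAR* sgRNAs. *OAS2*, *OAS1* and *HELZ2*, an interferon-induced helicase, differed by 1.14, 1.27 and 1.15. The differences of *OAS2* and *HELZ2* turned to −0.84 and −0.28 when GFP sg1 of NCI-H196 was left out. In that fit the median difference of all genes tested was 0.73. In NCI-H196 *IFIH1* was at 26.2, 103, 105 and 84.2 CPM and *OAS1* at 15.6, 88, 56.8 and 43.9 CPM, in the library order used above. Only GFP sg1 was low for both, and their NCI-H196 effects turned negative against GFP sg2 alone. *SLC12A7* and *GOLGB1*, which encodes a Golgi protein, had larger effects in NCI-H196 by 0.87 and 0.89. *SNORD3A*, a copy of the U3 small nucleolar RNA, differed by 1.10, but its near-identical copies can share reads. Among the genes with the lower effect in NCI-H196, *FSCN1*, which bundles actin, fell there (−0.52) and rose in NCI-H1650 (0.37). *AOX1*, aldehyde oxidase, likewise had −0.35 and 0.64. In NCI-H196 GFP sg2 was below both *ADAR* libraries for these 2 genes, at 314, 176, 210 and 215 CPM for *FSCN1* and 203, 132, 139 and 164 CPM for *AOX1*. Against GFP sg2 alone their NCI-H196 values turned to 0.29 and 0.26, and *AOX1* did not pass against GFP sg1 alone (adjusted p = 0.0679). *GREM1*, a BMP antagonist, differed by −3.59, but in NCI-H1650 it was at most 1.92 CPM, whereas in NCI-H196 it was at 177, 161, 146 and 166 CPM.

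Against HCC366, the third line with the same design, 5 of 12726 genes differed (0.0393%), all with the lower effect in NCI-H196. The 2 *ADAR* libraries of HCC366 differed far beyond sampling noise (chi-square per degree of freedom 17.5, against 1.34 in NCI-H196). With 1 of these 2 libraries left out, 4277 or 402 genes passed. Of the 5 genes called with all libraries, the 2 that were well-counted were the basement membrane gene *NID1* and the microfibril gene *FBN2*, with differences of −6.13 and −3.98. Neither was called in NCI-H196, where *NID1* was at 505, 630, 560 and 504 CPM. In HCC366 *NID1* was at 0 and 0.286 CPM with *GFP* and 14.9 and 15.5 CPM with *ADAR* sgRNAs. The study's 7 ATF4 targets had a median log2 fold change of 3.64 in HCC366, and a median difference of −2.63. By edgeR none of these 7 differences passed, whereas DESeq2 called those of *ATF3*, *GADD45A* and *TRIB3*.

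**Figure D5:**
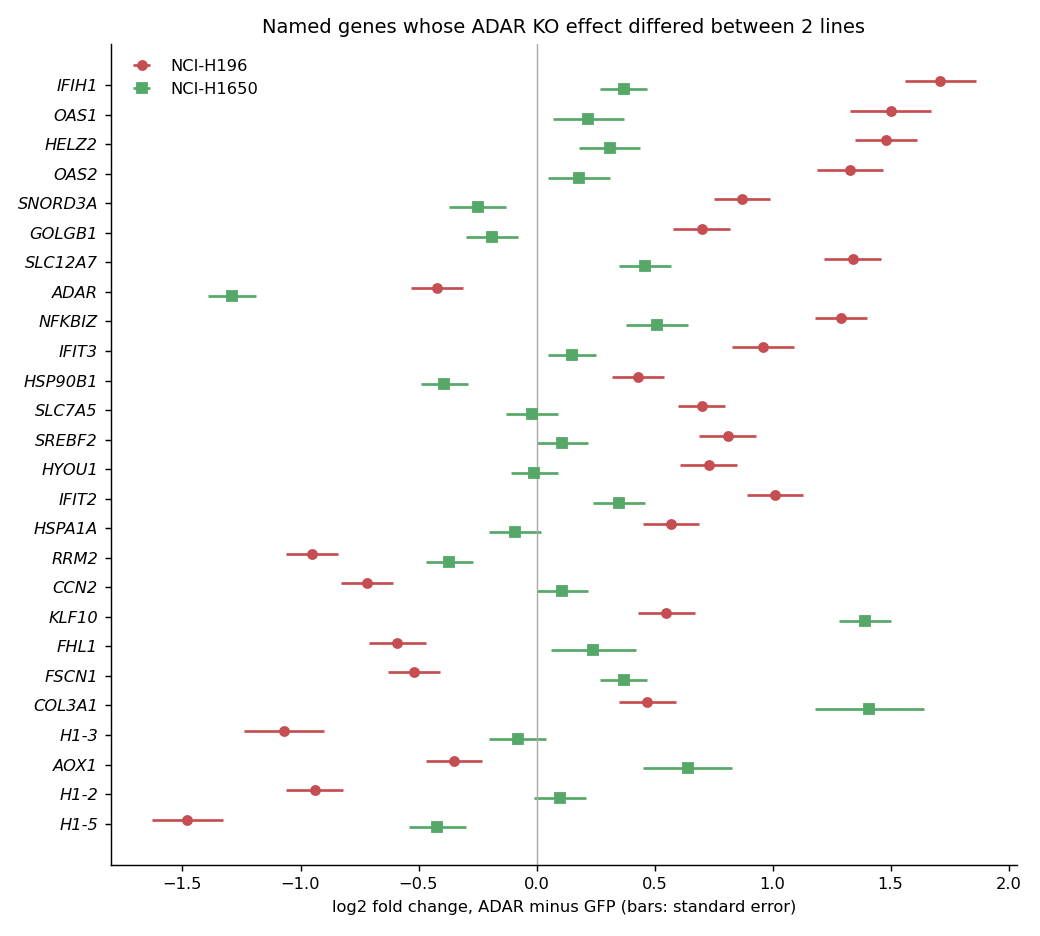
Log2 fold change of *ADAR* KO with its standard error in NCI-H196 and in NCI-H1650, each from its own fit, for genes named in the text that passed the test of the difference and were tested in both lines. *ADAR* is lower in both lines, by −0.42 and −1.29, and *IFIH1*, *OAS1*, *HELZ2* and *OAS2* lie higher in NCI-H196. In NCI-H196 each of these interferon-stimulated genes was low in GFP sg1 but not in GFP sg2.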

How the data were processed

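RNA was depleted of ribosomal RNA and made into directional libraries by the authors, and the submitters' processing notes name STAR, HTSeq and the hg19 build. The deposited values are raw read counts per gene for 58233 Ensembl identifiers, not normalized. The annotation release and strand setting were not given in the sources used here. HTSeq's summary lines took no part in library sizes or tests. In NCI-H196, reads that fell in no gene were 19 to 23.3% of the alignments. Symbols came from reference tables (55727 identifiers matched), positions from a GENCODE annotation on GRCh37, and promoter windows from RefSeq (GRCh38.p14).

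The tests used edgeR 4.0.16 under R 4.3.3 (TMM, filterByExpr by target, glmQLFit with legacy = FALSE, quasi-likelihood F-test, prior count 0.125), limma 3.58.1 and DESeq2 1.42.0. P-values were adjusted by Benjamini-Hochberg over all genes tested at 0.05. The procedure was tested on simulated data. Poisson intervals (95%) cover counting error only. Groups came from the labels.

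Members and gene lists were chosen with earlier results of these data known. Named genes were *ADAR*, *EIF2AK2* and the 7 ATF4 targets shown by the study. To these were added the 10 largest increases and decreases among well-counted genes that also passed against GFP sg1 alone with groups apart, up to 4 called members per list (well-counted first, or the 2 most abundant if none was called), the 5 largest well-counted differences between lines in each direction, and the markers. Other list members named, and *EGR1*, were chosen after their values were seen. Of 419 list entries 416 were matched. A few list members and markers are not reported here by name. Alternatives were DESeq2 size factors, no filter (at least 1 read), DESeq2's Wald test, edgeR's earlier method, limma-voom with quality weights, a replicate block by sgRNA number, each library left out, a spread shared with the other lines, and limits of 5 and 20 predicted reads. Same-numbered sgRNAs of the 2 targets share only a number. No 2 files held the same values.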

Additional observations from a re-analysis of the deposited data

Results flagged for a closer look

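The following named genes had an effect of *ADAR* KO that differed between NCI-H196 and NCI-H1650 by edgeR's test of the difference, given as NCI-H196 minus NCI-H1650 on the log2 scale. With the higher effect in NCI-H196 were *IFIH1* (1.34), *OAS1* (1.27), *HELZ2* (1.15), *OAS2* (1.14), *SNORD3A* (1.10), *GOLGB1* (0.89), *SLC12A7* (0.87), *ADAR* (0.86), *NFKBIZ* (0.78) and *IFIT3* (0.78). Smaller positive differences were found for *HSP90B1* (0.75), *SLC7A5* (0.72), *HYOU1* (0.71), *SREBF2* (0.71), *IFIT2* (0.66) and *HSPA1A* (0.65).

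With the lower effect in NCI-H196 were *GREM1* (−3.59), *H1-5* (−1.04), *H1-2* (−1.03), *H1-3* (−1.0), *AOX1* (−1.0), *COL3A1* (−0.95), *FSCN1* (−0.88), *FHL1* (−0.83), *KLF10* (−0.82), *CCN2* (−0.82) and *RRM2* (−0.56). Against HCC366, *NID1* (−6.13) and *FBN2* (−3.98) differed. DESeq2 called none of the differences from NCI-H1650 (0 of 16195 genes, with 116 at an unadjusted p under 0.05), and for every gene named here at least 1 of the 8 fits that left out a library did not pass.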

How the results depend on the processing

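GFP sg2 was too shallow to place genes of low level, so calls on them rest on GFP sg1. The number of genes called in NCI-H196 was 2550, of which 497 were well-counted. It was 10 (9 well-counted) with DESeq2, 1184 with limma-voom and 31 (6) with the spread shared with the other lines. Leaving out 1 library gave 0 to 1368 calls, and 0 to 410 among well-counted genes: 1368 without GFP sg2, 64 without GFP sg1, and 0 without either *ADAR* library. With limits of 5 and 20 predicted reads, 963 and 172 genes counted as well-counted and called. Same-numbered sgRNAs of the 2 targets deviated with a correlation of −0.199 over well-counted genes. A replicate block by sgRNA number gave 0 calls, 0 among well-counted genes, with 896 at an unadjusted p under 0.05. A block with the numbers crossed, chosen after seeing the data, gave 0 and 0, with 1983. For the difference from NCI-H1650 (211 genes), no filter gave 3, DESeq2 0, the replicate block 34 and leaving out 1 library 1 to 257, the lowest without GFP sg1 of NCI-H196. For HCC366 (5 genes), these were 43, 16, 1 and 0 to 4277.

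The log2 fold change of *ADAR* was −0.51 with DESeq2, −0.48 with the replicate block, −0.51 with the crossed block and −0.47 with the shared spread, where it did not pass, and −0.75 to −0.37 with 1 library left out. With 1 library left out, medians ranged from 0.75 to 0.99 for the study's ATF4 targets, from 1.31 to 1.75 for NF-kB targets and from 0.96 to 1.55 for immediate-early genes. The NF-kB median was 1.62 with the crossed block and 1.51 with the shared spread.

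Results that changed sign did so against GFP sg2 alone. Over the fits with 1 library left out, the medians ranged from −0.15 to 0.75 for the interferon signature, −0.14 to 0.45 for ER chaperones and −0.21 to 1.03 for dsRNA sensing. For genes called higher, the ranges were −0.34 to 0.78 (*HYOU1*), −0.36 to 0.62 (*HSP90B1*), −0.15 to 0.56 (*BAG3*), −0.73 to 1.40 (*OAS2*), −0.39 to 1.17 (*MX1*), −0.47 to 1.05 (*IFIT3*), −0.32 to 0.88 (*OAS3*), −0.21 to 1.82 (*IFIH1*), −0.92 to 1.67 (*OAS1*), −0.35 to 0.49 (*COL3A1*), −0.07 to 0.32 (*COL6A3*) and −0.01 to 1.55 (*HELZ2*). For genes called lower, they were −0.84 to 0.07 (*LIG1*), −0.77 to 1.05 (*AURKB*), −0.99 to 0.08 (*H1-2*), −0.38 to 0.53 (*RPL7*), −0.47 to 0.56 (*NQO1*), −0.49 to 0.53 (*FTL*), −0.44 to 0.48 (*LOX*), −0.78 to 0.05 (*CCN2*), −0.45 to 0.26 (*AOX1*) and −0.57 to 0.29 (*FSCN1*). Differences from NCI-H1650 ranged from −0.84 to 1.48 for *OAS2* and −0.28 to 1.53 for *HELZ2*, and the difference for H1-2, NCI-H196 minus NCI-H1650, from −1.20 to 0.00072. The cause was not tested. *INSIG1*, *PRIM1*, *SNHG7* and *SNHG8* had no read in GFP sg2 and gave no value against it. Without GFP sg1 the median of all genes tested was 0.18, against −0.0041 with all libraries. The median difference from NCI-H1650 was 0.73 without GFP sg1 of NCI-H196, against −0.02 with all libraries, so values from these fits are not centred.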
